A study of Homo sapiens with 3 samples.

Results

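The transcripts described here encode the machinery that ends, tails, shortens and degrades mRNA: 42 genes named in a fixed list by their role in 3′ end cleavage, polyadenylation, poly(A) binding, deadenylation, decapping and 5′ to 3′ decay. A probe matched 41 of them through the RefSeq accession of the array design, among 22435 gene symbols with a probe in all, and each gene was read from its brightest probe. No probe was matched to CNOT6. On every one of the 3 arrays 39 of the members were well above background, and 2 of them, TENT4B and CPSF2, were well above it on none.

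The RNA came from A549, a long-established line of human lung adenocarcinoma cells, cultured for 48 h with 0.1% DMSO as the control, with 60 μg/mL cordycepin or with 100 μg/mL cordyceps. All cultures were grown in DMEM with serum, antibiotics, nicotinamide, troglitazone and zinc sulfate, and the labels do not state the preparation of cordyceps or the vehicle of the treated cultures. There was 1 single-colour Agilent array per condition (n = 1), so every difference below is one between arrays, without replicate error and without a p-value. Both comparisons with control use the same control array, so a deviation of that array enters both.

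An mRNA receives its 3′ end when the CPSF complex, guided by the AAUAAA signal and assisted by CFIm, CstF and CFIIm, cuts the nascent transcript and a poly(A) polymerase adds the tail. Poly(A) binding proteins coat the tail, PAN2-PAN3 and CCR4-NOT shorten it, and decapping by DCP2 exposes the body of the message to the exonuclease XRN1. Cordycepin is an adenosine analogue without the 3′ hydroxyl group of the sugar; as a triphosphate it ends the growing RNA chain, and it has long been used as an inhibitor of polyadenylation. The labelling kit primes on the poly(A) tail, so the arrays report tailed RNA, and neither tail length nor protein was measured. In RNA from a whole culture, fewer cells with a transcript and less of it per cell cannot be told apart.

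Signals are background-subtracted scanner intensities. A log2 ratio compares arrays after subtraction of each array's 75th percentile, which stood at signals of 260.1 for control, 224.3 for cordycepin and 260.2 for cordyceps. The error that the scanner software assigns to the signal of a measured member was 10.0 to 20.9% over the arrays. That error is of 1 signal, whereas the spread of a ratio between arrays was read from probes of the same gene. Over 3356 genes with at least 2 measured probes, a probe's log2 ratio carried an SD of 0.35 for cordycepin over control and of 0.34 for cordyceps over control. A robust SD, less moved by extreme genes, was 0.254 and 0.205. This spread holds differences between probes and between the transcript forms they detect, and says nothing of variation between cultures. One corner of the cordyceps array stood apart: 10.6% of the named genes whose brightest probe lies there were at least 2-fold above control, compared with 2.65% elsewhere. Probes were placed by their first spot. The brightest probes of 2 members, PARN and CNOT1, lie in this corner, and its part in their values was not tested. CNOT10 is printed in 10 spots, and its log2 ratio with cordyceps was 0.37 over all spots and 0.55 without the corner. All 8 measured markers of A549 cells, among them AKR1B10 and KRT18, were well above background on every array. CDKN2A, which A549 cells have lost, was not above background by its NM_000077 probe but gave 4587, 1962 and 2881 on the control, cordycepin and cordyceps arrays by its NM_058197 probe, whose specificity was not tested. Of 9 markers of other cell types, 3 (PTPRC, CD79A and SCGB1A1) were above background on every array by their brightest probes, CD79A reaching 4093. CDH5 (61.3 and 57.5) and SFTPC (85.0 and 55.7) passed in control and cordycepin-treated cells but not with cordyceps. PECAM1 passed in control cells alone, by a dimmer probe (24.2), whereas CD3E, COL3A1 and DCN were above background on none of the arrays.

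Most transcripts of the polyadenylation and decay machinery differed little between treated and control cells. With cordycepin, 1 of the 39 measured members (RBBP6) was higher by 2-fold or more and 0 were lower by as much, against 5.90% and 3.55% of all named genes. With cordyceps, 0 were higher and 1 (PCF11) was lower by 2-fold or more, against 4.17% and 3.15%. Leaving out the corner of the cordyceps array lowered these shares to 3.33% and 2.20% and left 37 members measured, of which 0 were called in either direction. At 1.5-fold, 2 members were higher and 1 was lower with cordycepin, against 13.2% and 11.7% of named genes. The same numbers of members, 2 higher and 1 lower, passed 1.5-fold with cordyceps, against 8.30% and 12.5%.

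The member median was -0.08 on the log2 scale with cordycepin, beside -0.04 over all named genes, and -0.12 with cordyceps, beside -0.10. Within 1.25-fold of the control lay 26 members (66.7%) with cordycepin and 27 (69.2%) with cordyceps, compared with 52.1% and 55.9% of named genes. Within 1 SD of a single probe's ratio lay 26 and 29 of the 39 members, compared with 54.8% and 58.1% of named genes. The measured members were bright, with a median signal of 1035 on the control array, whose 75th percentile was 260.1. The named genes were not matched to them by signal and include bounds, so the part of signal in these shares was not tested. Scaling by another single value per array shifts all ratios together: under median scaling the all-gene medians were -0.31 and 0.12 and the member medians -0.35 and 0.15.

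**Figure D1:**
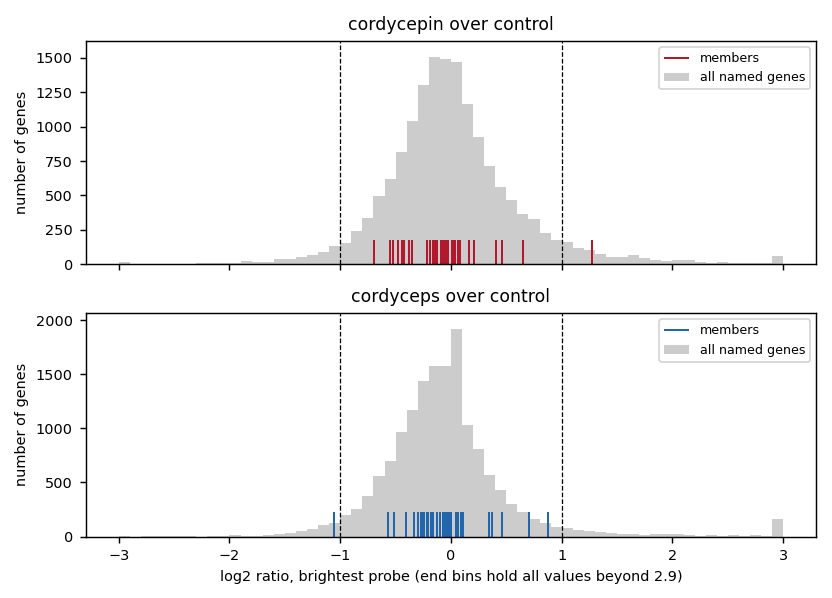
Number of named genes (grey bars, 0.1 wide) by the log2 ratio of the treated over the control array, for cordycepin above and cordyceps below; coloured ticks mark the 39 measured members and dashed lines 2-fold. The ticks gather near 0, and 1 tick lies beyond 2-fold in each panel, on the higher side with cordycepin and on the lower side with cordyceps.

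RBBP6, PCF11, CPSF6, DCP2 and WDR33 were at least 1.5-fold from control with cordycepin, with cordyceps or with both.

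RBBP6 gave the highest member ratio with each treatment. It encodes a RING finger protein with a ubiquitin-like domain that associates with the CPSF core and is required for efficient cleavage. Its signal was 101 in control cells, 211 with cordycepin and 186 with cordyceps, so both treated arrays lay above control. This corresponds to 2.42-fold higher with cordycepin (log2 1.27) and 1.84-fold higher with cordyceps (log2 0.88). The signal is one of the dimmer ones among the members, with a software error of 11.0% or less, and with normexp background correction the ratios were 0.93 and 0.56. The probe carries the accession NM_032626, 1 of the 3 RefSeq transcripts of the gene, and no other probe of RBBP6 was matched. Whether this probe detects the transcript of the protein described above was not tested.

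PCF11 gave the lowest member ratio with cordyceps. It is the CFIIm subunit that binds the C-terminal domain of RNA polymerase II and couples cleavage to transcription termination. The control array gave a signal of 1027, the cordycepin array 606 and the cordyceps array 494, both treated arrays being below control. The transcript was thus 1.46-fold lower with cordycepin (log2 -0.55) and 2.08-fold lower with cordyceps (log2 -1.06). The value with cordyceps is close to the threshold: it was -0.94 without the corner of the array and -0.79 under median scaling. CLP1, the RNA kinase that forms CFIIm with PCF11, was level, at 195, 170 and 194, with log2 ratios of 0.02 and -0.01.

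CPSF6 was lower with cordycepin alone. It encodes a CFIm subunit that, with NUDT21, favours distal poly(A) sites. Its signal of 1035 on the control array was close to the 1013 on the cordyceps array, whereas the cordycepin array gave 550. The log2 ratio was -0.70 with cordycepin (1.62-fold lower) and -0.03 with cordyceps. DCP2, the catalytic subunit of the decapping enzyme, had the opposite pattern, with 319 on the cordycepin array, 236 on the control array and 247 on the cordyceps array. Its log2 ratio was 0.65 with cordycepin (1.57-fold higher) and 0.07 with cordyceps.

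WDR33, whose gene encodes the CPSF subunit that contacts the AAUAAA signal together with CPSF4, was higher with cordyceps by its brightest probe. Its brightest probe gave 2397 in control cells, 1951 with cordycepin and 3900 with cordyceps, so the cordyceps array alone stood out. The log2 ratios were -0.08 with cordycepin and 0.70 with cordyceps (1.63-fold higher). A dimmer probe of the same accession, NM_001006622, went the same way, from 54.2 on the control array to 110 on the cordyceps array (log2 1.02). The probe of NM_001006623 did not, at 210 and 228 (log2 0.12), and the probe of NM_018383 was not well above background on any array. Whether the brightest probe detects the transcript of the CPSF subunit was not tested.

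**Figure D2:**
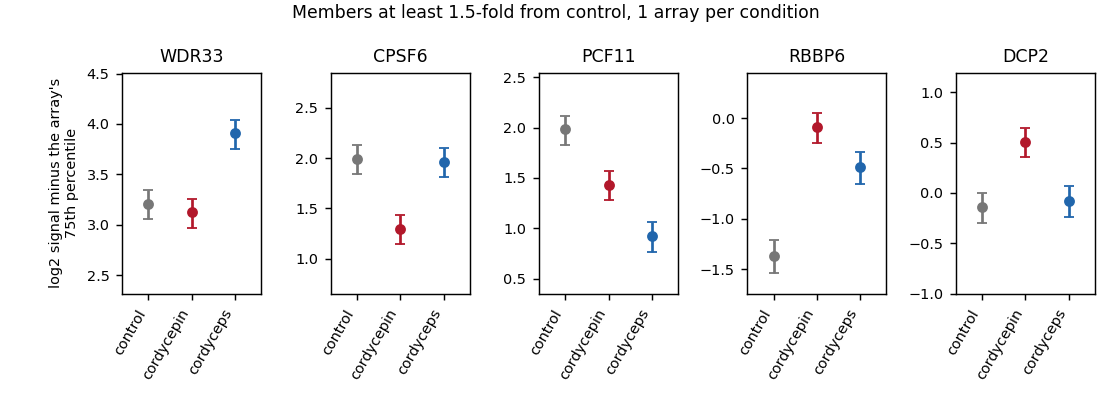
Log2 signal minus the array's 75th percentile for the 5 members at least 1.5-fold from control, with 1 point for each array and bars for the error assigned by the scanner software; each panel spans 2.2 log2 units. RBBP6 lies higher and PCF11 lower on both treated arrays, whereas CPSF6 and DCP2 stand apart with cordycepin and WDR33 with cordyceps.

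The promoters of the only members called at 2-fold are shown because they differed from control in opposite directions on both treated arrays. RefSeq promoter sequence (GRCh38.p14) was found for 36 of the 42 members. The stretches are the 250 bases before the gene's start, 5′ to 3′ on the plus strand, at chr16:24539316-24539565 for RBBP6 and chr11:83156881-83157130 for PCF11. Capitals mark every TGACGT (or the longer TGACGTCA that contains it), CCAAT and GGGCGG on either strand.
RBBP6: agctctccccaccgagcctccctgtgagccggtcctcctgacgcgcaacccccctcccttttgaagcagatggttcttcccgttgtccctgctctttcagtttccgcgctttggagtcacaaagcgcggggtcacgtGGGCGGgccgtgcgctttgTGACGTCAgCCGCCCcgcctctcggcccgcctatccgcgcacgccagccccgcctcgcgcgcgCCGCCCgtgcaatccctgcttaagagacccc
PCF11: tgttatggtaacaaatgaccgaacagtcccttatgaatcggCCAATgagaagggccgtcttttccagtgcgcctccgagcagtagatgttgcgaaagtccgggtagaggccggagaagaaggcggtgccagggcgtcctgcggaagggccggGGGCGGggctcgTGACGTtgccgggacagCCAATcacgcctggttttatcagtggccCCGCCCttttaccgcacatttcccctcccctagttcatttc

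TGACGTCA, the full cyclic AMP response element, occurs in the promoters of RBBP6, CSTF3 and XRN2, 3 of 36 members (8.33%), and in 2.32% of 15843 protein-coding promoters. The core TGACGT occurs in 8 members (22.2%) and in 8.67% of coding promoters. CCAAT was found in 14 members (38.9%) against 34.5% and GGGCGG, the GC box, in 24 (66.7%) against 56.0%, while TATAAA was found in 0 members against 9.23%. PCF11 has 2 CCAAT and 2 GGGCGG matches, whereas RBBP6 has 3 GGGCGG matches and 0 CCAAT. These matches are letters in a window and were searched after the sequences were seen.

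The enzymes that add tails were close to control. PAPOLA, the main nuclear poly(A) polymerase, gave 950, 804 and 716 on the control, cordycepin and cordyceps arrays (log2 -0.03 and -0.41). PAPOLG, its nuclear paralogue, gave 672, 669 and 658 (log2 0.21 and -0.03). The lower value of PAPOLA with cordyceps was 1.33-fold, a little more than 1 SD of a probe's ratio. TENT2, a cytoplasmic poly(A) polymerase, and TENT4A, which adds mixed tails, lay between -0.24 and -0.05 with both treatments.

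Within CPSF, whose endonuclease is CPSF3, none of the other measured subunits reached 1.5-fold. Their log2 ratios with cordycepin ran from -0.43 for the scaffold CPSF1 (signals of 202 and 130) to 0.07 for FIP1L1, which tethers poly(A) polymerase. With cordyceps these subunits ran from -0.25 for CPSF3 to 0.10 for FIP1L1. In CFIm, NUDT21, which binds the UGUA element, gave 1271, 1455 and 1312 (log2 0.41 and 0.04), and CPSF7 gave 3104, 2307 and 3312 (log2 -0.21 and 0.09).

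CstF binds the downstream U- or GU-rich element. Its CSTF1 subunit was at -0.09 with each treatment. The RNA-binding subunit CSTF2 and its paralogue CSTF2T parted with cordycepin: CSTF2 gave 802 and 950 on the control and cordycepin arrays, CSTF2T 635 and 404. Their log2 ratios were 0.46 and -0.44, a gap of 0.90, and with cordyceps 0.11 and -0.25. CSTF3, the scaffold of CstF, gave 1221, 1114 and 823 by its brightest probe (log2 0.08 and -0.57), just inside 1.5-fold with cordyceps.

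Of the associated factors, SYMPK, the scaffold that joins the subcomplexes, was bright and level at 22440, 21700 and 20590 (log2 0.17 and -0.12). SSU72, a phosphatase of the C-terminal domain of RNA polymerase II, was lower with cordycepin, at 6613, 4102 and 5911 (log2 -0.48 and -0.16).

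With cordycepin the poly(A) binding proteins lay slightly below control by their brightest probes. With cordyceps PABPN1 did too, whereas the direction of PABPC1 and PABPC4 followed the processing: PABPC1 was above control, at 0.01 to 0.23, and PABPC4 at 0.02 to 0.20, under median scaling, the 75th percentile over detected probes, quantile normalization and without the corner. PABPN1, which coats tails in the nucleus, gave 14890, 10050 and 11260 (log2 -0.35 and -0.40). PABPC1, the main cytoplasmic form, gave 111700, 75310 and 108300 (log2 -0.35 and -0.04), lower with cordycepin and near control with cordyceps. PABPC4 gave 8839, 6698 and 8437 (log2 -0.19 and -0.07). A second, dim probe of PABPC4 went the other way with cordycepin, at 9.73, 25.2 and 18.8. It was well above background on the cordycepin array alone, at least 1.57-fold higher than control.

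Among the deadenylases that act first or alone, PAN3, the adaptor of PAN2-PAN3, was the lowest, at 214, 128 and 150 (log2 -0.53 and -0.51). PAN2, the catalytic partner, gave 429, 336 and 371 (log2 -0.14 and -0.21). PARN, a deadenylase that also trims small nuclear and nucleolar RNAs, gave 1587, 1197 and 1656 (log2 -0.19 and 0.06), its cordyceps value coming from the corner.

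By their brightest probes the catalytic subunits of CCR4-NOT stayed within 1.26-fold of control. CNOT6L gave 970, 807 and 771 (log2 -0.05 and -0.33), CNOT7 gave 1749, 1431 and 1562 (log2 -0.08 and -0.16), and CNOT8 gave 727, 632 and 594 (log2 0.01 and -0.29). With cordyceps these 3 members were below control by these probes, but the second probes of CNOT6L and CNOT7 were above it (log2 0.65 and 0.34), and under median scaling CNOT7 stood at 0.11 and CNOT8 at -0.02. The non-catalytic subunits ran from -0.19 (CNOT10) to 0.21 (CNOT4, an E3 ubiquitin ligase) with cordycepin. With cordyceps they ran from -0.27 (CNOT2) to 0.47 (CNOT1, the scaffold, at 350 and 483 on the control and cordyceps arrays, with its probe in the corner). CNOT10, printed in 10 spots, gave 1686, 1276 and 2181 (log2 0.37 with cordyceps), and CNOT3 was at 0.35. Without the corner of the cordyceps array CNOT10 stood at 0.55 and CNOT3 at 0.46. CNOT9 was the dimmest measured member at 54.8, 46.2 and 52.3.

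The 5′ to 3′ exonucleases were below control with both treatments, except that XRN2 stood at 0.01 with cordyceps under median scaling. The cytoplasmic XRN1 gave 721, 536 and 574 (log2 -0.21 and -0.33). The nuclear XRN2, which degrades the RNA left after cleavage and so takes part in termination, gave 556, 368 and 464 (log2 -0.38 and -0.26).

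**Figure D3:**
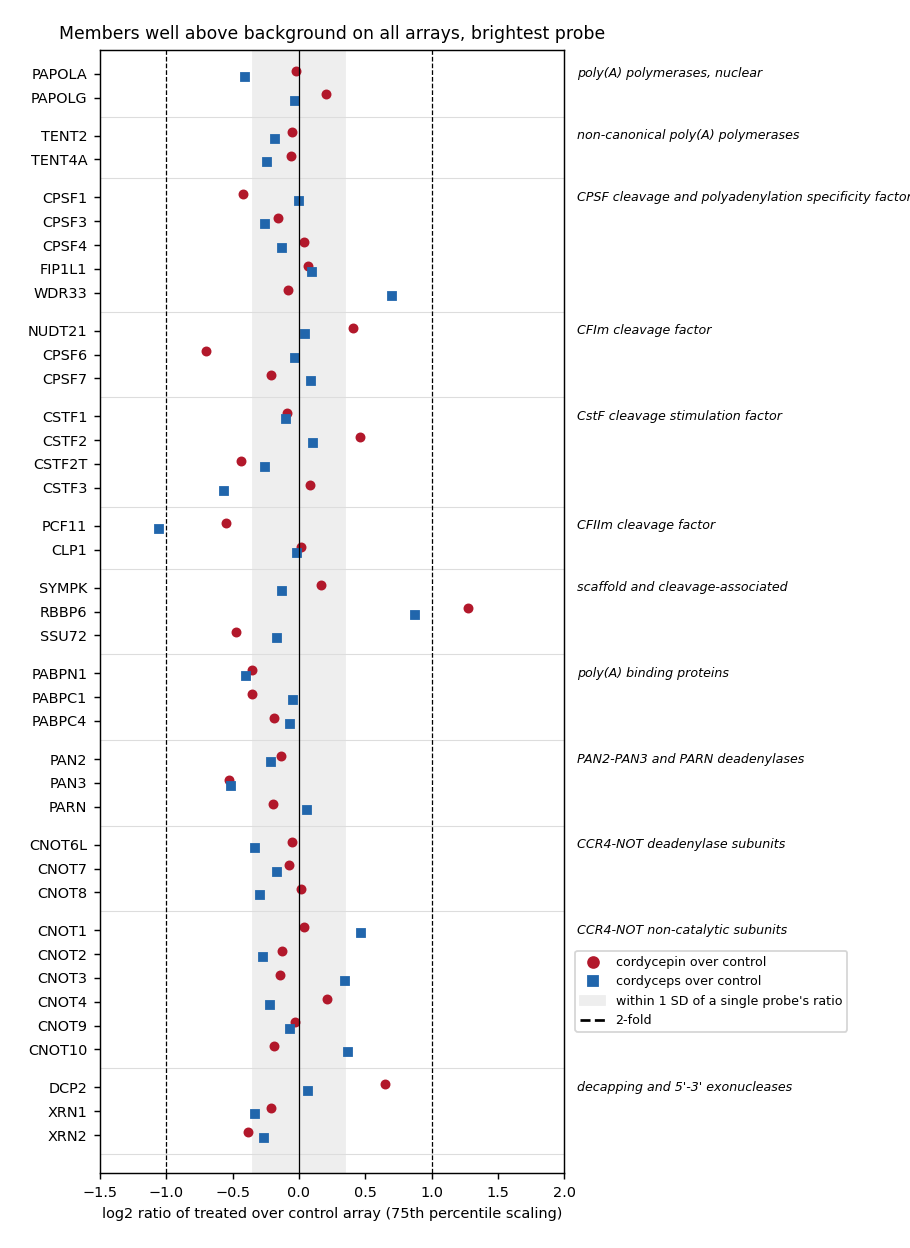
Log2 ratio of the treated over the control array for the 39 measured members, grouped by role, with cordycepin as circles and cordyceps as squares; the grey band is 1 SD of a single probe's ratio (0.35) and dashed lines mark 2-fold. Most points fall in the band. With both treatments RBBP6 lies to its right and PCF11, PAN3 and PABPN1 to its left, PABPN1 at its edge with cordycepin.

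How far a single probe can be trusted was read from the 6 members with 2 probes measured on all arrays. For CSTF3, the NM_001033505 probe gave 596, 925 and 326, higher with cordycepin (log2 0.85) and lower with cordyceps (log2 -0.87), whereas the NM_001326 probe gave 0.08 and -0.57. A gap as wide as that with cordycepin (0.77) was seen in 11.0% of the 3356 genes. For CNOT4, the NM_001008225 probe gave 42, 74.9 and 45.8 (log2 1.05 with cordycepin) against 0.21 by the brightest probe, a gap that 9.09% of genes match.

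The probes of NUDT21 went in opposite directions with cordycepin, at 0.41 and -0.26, though both carry NM_007006. With cordyceps the probes of CNOT6L, both of NM_001286790, gave -0.33 and 0.65, a gap of 0.99 that 3.99% of genes match. The direction of NUDT21 with cordycepin and of CNOT6L with cordyceps therefore depends on the probe. CNOT7 gave -0.08 and 0.30 with cordycepin and -0.16 and 0.34 with cordyceps. Transcripts that end early within the gene are known for WDR33, CSTF3, RBBP6 and PCF11, and probe sequences were not used here to tell which forms each probe detects.

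**Figure D4:**
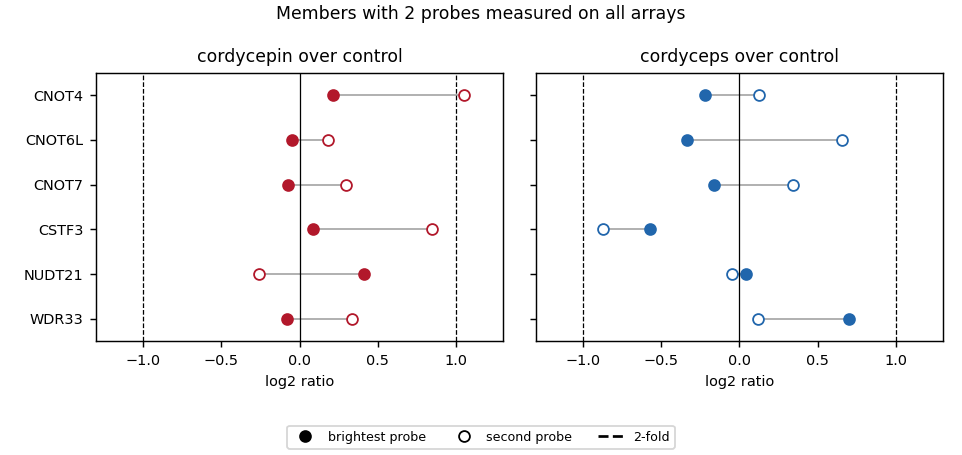
Log2 ratio of the treated over the control array by the brightest probe (filled) and the second probe (open) of the 6 members with 2 measured probes, for cordycepin on the left and cordyceps on the right; dashed lines mark 2-fold. The probes of CNOT4 and CSTF3 lie far apart with cordycepin, and those of CNOT6L with cordyceps.

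With cordycepin the other measured paralogue pairs were closer together than CSTF2 and CSTF2T. CPSF6 and CPSF7 differed by 0.48 with cordycepin and by 0.13 with cordyceps. PAPOLA and PAPOLG differed by 0.38 with cordyceps, and CNOT7 and CNOT8, PABPC1 and PABPC4, and XRN1 and XRN2 by 0.17 or less with each treatment. CNOT6 had no probe and TENT4B no signal above background, so neither could be set beside its paralogue.

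Of 114 further genes of tail metabolism and decay, 111 had a probe. With cordycepin 103 gave a ratio or a bound, of which 2 were higher and 1 was lower by 2-fold or more, beside the 5.90% and 3.55% of all named genes. At 1.5-fold 5 (4.85%) were higher and 8 (7.77%) lower, beside 13.2% and 11.7%. BTG2, an antiproliferative protein that activates CCR4-NOT, gave 1036 in control cells, 1952 with cordycepin and 720 with cordyceps (log2 1.13 and -0.53). It was higher with cordycepin and lower with cordyceps. ZFP36L2, which recruits deadenylases to AU-rich elements, gave 3122, 1290 and 1646 (log2 -1.06 and -0.92), below control on both treated arrays. TENT5C, a cytoplasmic poly(A) polymerase, gave dim signals of 13.8, 51.65 and 13.4 and was well above background on the cordycepin array alone. It was at least 3.15-fold higher there than on the control array and at least 1.74-fold higher than on the cordyceps array.

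With cordyceps 102 of these genes gave a ratio or a bound, of which 1 was higher and 1 was lower by 2-fold or more, beside the 4.17% and 3.15% of all named genes. At 1.5-fold 6 (5.88%) were higher and 7 (6.86%) lower, beside 8.30% and 12.5%. The higher one was DIS3L2, an exonuclease of uridylated RNA, at 118, 72.9 and 668 (5.65-fold higher with cordyceps), from a probe in the corner. Its other measured probes gave log2 ratios of -0.65 and -0.14 with cordyceps. With cordycepin they gave -1.13 and -0.22, beside -0.48 by the brightest probe. The lower one was LSM11, a component of the U7 particle of histone mRNA processing, at 81.3, 57.2 and 40.6 (2.005-fold lower with cordyceps, just past the threshold). The median over these genes was -0.03 with cordycepin and -0.12 with cordyceps.

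Between the treated arrays, which differ in agent and in dose, 0 members were at least 2-fold apart in either direction by their brightest probes. Of named genes, 7.75% were higher and 5.55% lower with cordycepin by as much. At 1.5-fold, CSTF3 (log2 0.65) and DCP2 (0.59) were higher with cordycepin, and WDR33 (-0.78) and CPSF6 (-0.67) were lower, 2 in each direction beside 16.9% and 12.7% of named genes. The member median was 0.07, that of all named genes 0.04.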

How the data were processed

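RNA of 3 conditions of A549 cells was hybridized to 1 Agilent array each. The labels and files give a single Cy3 channel per array, whereas the study's methods name Cy3 for vehicle and Cy5 for cordycepin RNA; ratios were therefore taken between arrays. The authors deposited scanner files whose intensity values (Feature Extraction 11.5.1.1) are background-subtracted and not scaled between arrays, and a table of mean intensity per probe, used as an alternative. All arrays share a slide and a scan.

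From these, control spots and outlier spots (63 to 106 an array) were left out, log2 intensity was reduced by each array's 75th percentile, and spots of a probe were averaged. Detection required the software's well-above-background flag on 50% or more of the spots of a probe. Accessions were named through the RefSeq gene table of GRCh38.p14, for names alone since the array design is older, and the probe with the highest mean log2 signal stood for its gene. A 2-fold difference was the call. It was a ratio where a gene was detected on both arrays and a bound where it was detected on 1, taken against the dim array's lowest detected signal or the probe's signal there, whichever was higher. Promoter sequences are RefSeq's.

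The members and gene lists were chosen with earlier results of these data known. Array values were given for members at least 1.5-fold from control and for a fixed set of polymerases, deadenylases, binding proteins and nucleases; other values were chosen after they were seen, and further pathway genes were named at 2-fold. With 1 array per condition no test was run, and precision is limited by the number of arrays. The calling steps were tested on simulated data. Alternatives concerned scaling, background correction, detection, outlier spots, the probe of a gene, the corner and the threshold. Python 3.11.15 (numpy 2.4.6, pandas 2.3.3, matplotlib 3.10.9) and R 4.3.3 with limma 3.58.1 were used.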

Additional observations from a re-analysis of the deposited data

How the results depend on the processing

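Each count and median was recomputed under 14 and each named ratio under 12 alternatives at most, and no called direction was reversed. With cordycepin over control, the 1 member called higher became 0 with normexp background correction, 2 at 1.5-fold and 0 at 3-fold, and the 0 called lower became 1 at 1.5-fold. With cordyceps over control, the 0 called higher became 1 under median scaling (RBBP6, log2 1.15) and 2 at 1.5-fold. The 1 called lower there, PCF11, became 0 under median scaling, the 75th percentile over detected probes, quantile normalization, normexp, without the corner and at 3-fold. For cordycepin over cordyceps, the 0 higher became 1 with the median over a gene's probes (CSTF3, log2 1.19) and 2 at 1.5-fold, and the 0 lower became 4 under median scaling (CNOT3, CNOT10, CPSF6 and WDR33) and 2 at 1.5-fold. Its member median of 0.07 became -0.46 under median scaling, which moved the all-gene median from 0.04 to -0.47. Median scaling and the 75th percentile over detected probes shift all genes of a comparison together. Leaving out the corner shifts those with all spots outside it together, PCF11 among them, because the 75th percentile is taken anew. Otherwise the cause of these moves was not tested.

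Over the alternatives RBBP6 ranged from 0.93 to 1.32 with cordycepin and from 0.56 to 1.15 with cordyceps, and PCF11 from -0.81 to -0.50 and from -1.06 to -0.79. CPSF6 ranged from -0.96 to -0.62 with cordycepin, DCP2 from 0.39 to 0.70, and WDR33 with cordyceps from 0.61 to 0.97. CNOT6L with cordyceps was -0.33 by its brightest probe and 0.16 by the median over its probes. No paired analysis was possible because each condition has 1 array. Dim signals limit TENT4B and CPSF2, for which no ratio is given.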
